A study of Mus musculus with 24 samples.

Results

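The genes described here carry and control the extrinsic route to apoptosis: the death receptors Fas, Tnfrsf10b (the mouse Trail receptor) and Tnfrsf1a (the Tnf receptor 1), the ligands Fasl and Tnfsf10 (Trail), the adaptor Fadd, the initiator caspase Casp8 and its inhibitor Cflar (cFlip). They were taken by name, through the gene name or an older synonym given for each non-control probe, which gave 11 probes of 8 genes among the 55681 probes and 29532 features (1 feature a gene) of the array. All 11 probes lay well above background on all 24 arrays, so no member was lost to the filter on dim probes. RNA came from the spleens of B10.BR mice at rest (0 cGy) or 24 hours after total body irradiation with 300, 500 or 900 cGy of X-rays, and of BALB.K mice at rest or 24 hours after 300, 400 or 800 cGy. Each of the 8 groups had 3 one-colour Agilent arrays, each of RNA pooled from 3 mice, so the spread is that between pools. Both strains are inbred and no group carries a targeted mutation or transgene. The ages of the mice are not given in the sources used here. The series calls the highest dose of each strain myeloablative, a dose that destroys the bone marrow.

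A death receptor bound by its ligand gathers Fadd, and Fadd gathers Casp8, which cleaves itself and starts the proteolytic cascade. Cflar resembles Casp8 without its enzyme activity and limits or tunes this step, while Tnfrsf1a reaches Fadd only through a second complex and more often signals inflammation and survival. In the spleen, Fas and Fasl limit activated lymphocytes, Fasl and Tnfsf10 arm cytotoxic T cells and NK cells, and Fas and Tnfrsf10b are known target genes of the damage-activated factor p53.

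The short sequences below show where the measurement was made, for the 3 member probes with 2 reading frames free of stop codons, which belong to the genes whose probes or strains differed. All are 60 bases long, are given 5′ to 3′ in lower case with the position the array design gives in mouse build mm9, and were all measured on every array. No annotation of that build was used here, so exon numbers are not given.
Tnfrsf1a A_55_P2051099, chr6:125311922-125311981 (plus strand): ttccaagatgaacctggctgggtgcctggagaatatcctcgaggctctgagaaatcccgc
Casp8 A_51_P247799, chr1:58901601-58901660 (plus strand): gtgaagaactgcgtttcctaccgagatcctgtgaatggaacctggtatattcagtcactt
Cflar A_55_P1983459, chr1:58810660-58810719 (plus strand): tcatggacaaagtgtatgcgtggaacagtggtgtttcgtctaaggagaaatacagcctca

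The other probes lay in mm9 at chr19:34402164-34402223 for Fas, chr14:70184141-70184200 for Tnfrsf10b, chr6:125312376-125312435 for the second Tnfrsf1a probe, chr1:163711056-163711115 for Fasl, chr3:27238508-27238567 for Tnfsf10, chr7:151764228-151764267 for Fadd, and chr1:58789994-58790053 and chr1:58811116-58811175 for Cflar. The Tnfrsf1a probe A_52_P192426 had 10 spots an array and A_55_P2051099 had 1. The Cflar probe A_55_P1983468 was designed on the transcript NM_009805, and A_52_P226929 and A_55_P1983459 on NM_207653. The brightest probe stood for its gene, and the others are described beside it.

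The 250 bases before the transcription start are shown for the 3 genes that rose in every comparison with 0 cGy and have an entry in the RefSeq table (GRCm38.p6). Tnfrsf10b has none. Capitals mark matches on either strand to 8 motifs. Searched by name were the p53 half-site, a loose NF-kappaB motif (3 G and 2 C with any 5 bases between) and an interferon response motif (a G with 3 A, any 2 bases, and the same again). Searched by letters were the STAT motif TTCNNNGAA and the AP-1 motif TGANTCA, which are short inverted repeats. The core promoter elements were the GC box GGGCGG and the TATA box, TATAAA. The last was the core of the NFAT motif, TGGAAA.
Fas promoter, chr19:34290409-34290658 (plus strand): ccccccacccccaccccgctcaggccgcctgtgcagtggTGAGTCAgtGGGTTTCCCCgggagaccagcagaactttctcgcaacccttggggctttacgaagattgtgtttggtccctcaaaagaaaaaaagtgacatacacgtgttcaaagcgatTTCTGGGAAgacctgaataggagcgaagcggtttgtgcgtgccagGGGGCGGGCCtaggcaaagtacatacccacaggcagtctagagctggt
Tnfrsf1a promoter, chr6:125349473-125349722 (plus strand): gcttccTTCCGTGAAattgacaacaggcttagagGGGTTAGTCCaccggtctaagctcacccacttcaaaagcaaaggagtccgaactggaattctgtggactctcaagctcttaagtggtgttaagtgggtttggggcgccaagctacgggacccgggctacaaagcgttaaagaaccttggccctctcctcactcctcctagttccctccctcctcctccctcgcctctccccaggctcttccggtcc
Tnfsf10 promoter, chr3:27316827-27317076 (plus strand): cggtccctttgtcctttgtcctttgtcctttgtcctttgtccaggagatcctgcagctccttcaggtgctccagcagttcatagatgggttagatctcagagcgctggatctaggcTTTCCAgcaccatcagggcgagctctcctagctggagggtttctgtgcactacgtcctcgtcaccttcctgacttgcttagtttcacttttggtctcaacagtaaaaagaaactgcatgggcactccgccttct

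In the Fas window the NF-kappaB motif began 202 and 48 bases before the start, the match at 48 overlapping GGGCGG at 47, and TTCNNNGAA and TGANTCA began at 93 and 211 bases. The Tnfrsf1a window held TTCNNNGAA at 244 and the NF-kappaB motif at 216 bases, and the Tnfsf10 window only TGGAAA, at 134 bases on the other strand. Of all 32851 promoters of this length 45.8% held the NF-kappaB motif, 7.02% TTCNNNGAA, 32.7% GGGCGG, 6.75% TGANTCA, 18.6% TGGAAA, 12.4% TATAAA, 2.98% the interferon response motif and 7.13% the p53 half-site. Among the 7 members with a promoter entry, only Fasl held the p53 half-site and none held the interferon response motif. These matches describe letters and not binding.

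Levels are log2 intensity relative to the array's 75th percentile, where 0 is that percentile and each unit is a doubling. They serve to compare groups for 1 probe and not to rank genes. Changes are differences of log2 levels ± the standard error of the limma fit over all 24 arrays, 3 arrays against 3, and "rose" or "fell" means a Benjamini-Hochberg adjusted p under 0.05 over all 29532 features, two-sided. The damage marker Cdkn1a (p21) rose in all 6 comparisons with 0 cGy, by 3.82 to 5.35. Between 67% and 77% of an array's probes exceeded background by the scanner's own test, and arrays of 1 group correlated at 0.972 to 0.996. Ddx3y, a gene of the Y chromosome, was detected in every B10.BR pool, while among the BALB.K pools it was detected in replicate 1 alone at 0, 300 and 400 cGy and in all 3 replicates at 800 cGy. The arrays lay on 3 slides of 8, with B10.BR at 0 and 300 cGy on slide 1 and BALB.K at 0 on slide 2, which touches the comparison of strains. All B10.BR arrays at 900 cGy lay on slide 2, and all BALB.K arrays at 400 and 800 cGy on slide 3. These groups shared no slide with 0 cGy of their strain, so dose and slide differ together in those comparisons. Of BALB.K at 300 cGy, replicate 1 lay on slide 2 and replicates 2 and 3 on slide 3. That comparison with 0 cGy thus crosses slides in part, while B10.BR at 300 cGy lies within slide 1. Slides 1 and 2 share a group only through replicate 3 of B10.BR at 500 cGy. Slides 2 and 3 do so only through replicate 1 of BALB.K at 300 cGy. Between groups that share no slide, and for BALB.K at 300 against 0 cGy, fits with slide as a block rest on these arrays. Exocrine pancreas signal, from tissue that adjoins the spleen, varied between 0.000582% and 0.576% of an array's signal, with medians at 0, 300, 500 and 900 cGy of 0.00111%, 0.366%, 0.00758% and 0.417% in B10.BR. Its 9 genes all rose in B10.BR at 300 and 900 cGy, where 18.7% and 25.8% of all features rose. The part of this signal in the members' changes was not tested beyond the covariate fits. The spread between pools limits the precision of every value.

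Across the members, irradiation was followed by higher levels of receptors and ligands. In B10.BR, 6 of 8 members rose and none fell at 300 cGy, where 18.7% of all features rose, 6 rose and none fell at 500 cGy (22.1% of all features), and 5 rose and none fell at 900 cGy (25.8%). In BALB.K the counts were 6 at 300 cGy (20.7% of all features), 6 at 400 cGy (25.6%) and 5 at 800 cGy (29.3%), again with none lower. The members' median change was 0.73, 0.82 and 0.60 in B10.BR at 300, 500 and 900 cGy, and 0.72, 0.74 and 0.61 in BALB.K at 300, 400 and 800 cGy, while the median over all features lay between -0.12 and 0.08. Fas, Tnfrsf10b, Tnfrsf1a and Tnfsf10 rose in all 6 comparisons, Fasl in 4, Cflar in the 3 of B10.BR, Casp8 in the 3 of BALB.K and Fadd in none. The comparisons of 1 strain share their arrays at 0 cGy and are not independent of each other. A spleen level is that of a mixture, in which fewer cells of a type and less RNA per cell cannot be told apart.

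**Figure D1:**
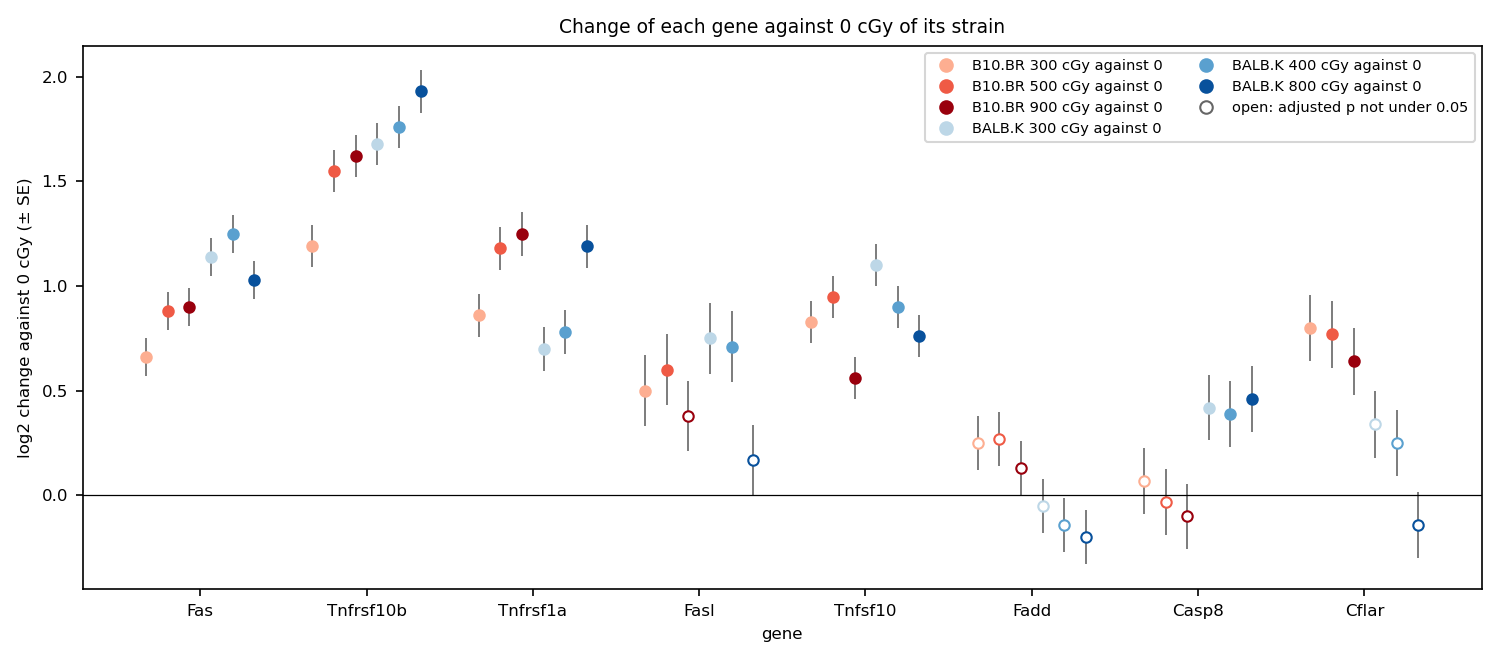
Log2 change of each gene against 0 cGy of its strain (points, vertical axis) with the standard error of the limma fit, 3 arrays against 3, for the 3 doses of B10.BR and of BALB.K. Filled points passed an adjusted p of 0.05, and the 4 genes filled in all 6 comparisons are Fas, Tnfrsf10b, Tnfrsf1a and Tnfsf10.

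Fas, the receptor for Fasl, rose at every dose in both strains. Its irradiated arrays read higher in BALB.K than in B10.BR, but the irradiated strains were not tested against each other. Levels between strains depend on the scaling, as given below for 0 cGy. In B10.BR its arrays read 1.41, 1.45 and 1.60 at 0 cGy, 2.04, 2.22 and 2.20 at 300 cGy, 2.32, 2.28 and 2.5 at 500 cGy, and 2.45, 2.27 and 2.43 at 900 cGy. In BALB.K they read 1.72, 1.47 and 1.66 at 0 cGy, 2.73, 2.84 and 2.70 at 300 cGy, 2.80, 2.87 and 2.94 at 400 cGy, and 2.61, 2.62 and 2.72 at 800 cGy. Every irradiated array lay above every unirradiated array of its strain, which held for 22.8%, 26.0% and 30.9% of all features in B10.BR at 300, 500 and 900 cGy and for 21.2%, 28.7% and 33.0% in BALB.K at 300, 400 and 800 cGy. The 9 irradiated BALB.K arrays all lay above the 9 irradiated B10.BR arrays, though beyond 300 cGy the doses differ and the strains lay largely on different slides. How many of all features separate in that way was not counted. Between the unirradiated strains, 25.1% of all features lay all above in B10.BR and 32.2% all below. The change in B10.BR was 0.66 ± 0.09 at 300 cGy (1.58-fold, adjusted p = 9.38e-06), 0.88 ± 0.09 at 500 cGy and 0.90 ± 0.09 at 900 cGy. In BALB.K it was 1.14 ± 0.09 at 300 cGy (2.20-fold, adjusted p = 8.46e-09), 1.25 ± 0.09 at 400 cGy (2.38-fold) and 1.03 ± 0.09 at 800 cGy. From 1 dose to the next Fas did not pass in either strain, with steps of -0.22 to 0.22 (adjusted p of 0.0923 to 0.953).

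Tnfrsf10b, which binds Tnfsf10 and signals through Fadd, rose in all 6 comparisons. In B10.BR its arrays read -1.07, -1.01 and -0.75 at 0 cGy, 0.35, 0.34 and 0.06 at 300 cGy, 0.59, 0.66 and 0.57 at 500 cGy, and 0.79, 0.73 and 0.52 at 900 cGy. In BALB.K they read -1.38, -1.56 and -1.44 at 0 cGy, 0.18, 0.35 and 0.15 at 300 cGy, 0.34, 0.32 and 0.24 at 400 cGy, and 0.47, 0.40 and 0.54 at 800 cGy. No irradiated array overlapped with the unirradiated ones of its strain, with the shares of all features given for Fas. The group means stood in the order of dose in each strain, and how many of all features do so was not counted. The change was 1.19 ± 0.10, 1.55 ± 0.10 and 1.62 ± 0.10 in B10.BR at 300, 500 and 900 cGy (2.29-fold to 3.08-fold), with an adjusted p of at most 4.53e-08. In BALB.K it was 1.68 ± 0.10, 1.76 ± 0.10 and 1.93 ± 0.10 at 300, 400 and 800 cGy (3.21-fold to 3.81-fold), with an adjusted p of at most 2.05e-10. Steps between neighbouring doses did not pass, the widest being 0.36 ± 0.10 for B10.BR at 500 against 300 cGy (adjusted p = 0.0805).

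Tnfrsf1a, through which Tnf signals, rose at every dose, and in BALB.K it rose again at 800 against 400 cGy. In B10.BR its arrays read 3.6, 3.44 and 3.39 at 0 cGy, 4.55, 4.24 and 4.23 at 300 cGy, 4.79, 4.62 and 4.57 at 500 cGy, and 4.63, 4.90 and 4.65 at 900 cGy. In BALB.K they read 3.79, 3.76 and 3.61 at 0 cGy, 4.53, 4.47 and 4.24 at 300 cGy, 4.52, 4.52 and 4.46 at 400 cGy, and 4.94, 4.90 and 4.90 at 800 cGy. The BALB.K arrays at 800 cGy all lay above those at 400 cGy, which held for 24% of all features. The irradiated groups never overlapped with the unirradiated ones, with the shares of all features given for Fas. The change was 0.86 ± 0.10, 1.18 ± 0.10 and 1.25 ± 0.10 in B10.BR (adjusted p of at most 2.62e-06), and 0.70 ± 0.10, 0.78 ± 0.10 and 1.19 ± 0.10 in BALB.K (adjusted p of at most 2.20e-05). The step of 800 against 400 cGy in BALB.K, 0.41 ± 0.10, passed (adjusted p = 0.0102), where 8.66% of all features rose. It ended with Y-linked signal as a covariate (0.34, adjusted p = 0.0601), with the exocrine level as a covariate (0.37, adjusted p = 0.0597), and without the BALB.K arrays that lack Y-linked signal (0.39, adjusted p = 0.159).

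The second Tnfrsf1a probe, A_55_P2051099, whose sequence is printed above, changed by 1.08 ± 0.12, 1.24 ± 0.12 and 1.62 ± 0.12 in B10.BR at 300, 500 and 900 cGy, and by 0.93 ± 0.12, 1.25 ± 0.12 and 1.92 ± 0.12 in BALB.K at 300, 400 and 800 cGy. It rose in all 6 comparisons as the first probe did, and in BALB.K its step of 800 against 400 cGy was 0.66 ± 0.12 (adjusted p = 0.00135). The probes parted between the unirradiated strains. There A_55_P2051099 read 1.17, 1.15 and 1.03 in B10.BR, against 0.75, 0.84 and 0.66 in BALB.K, a difference of 0.36 ± 0.12 (adjusted p = 0.0208), whereas A_52_P192426 differed by -0.24 ± 0.11 (adjusted p = 0.0654 in the fit over all probes). Whether the strains differ in sequence under a probe was not tested.

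**Figure D2:**
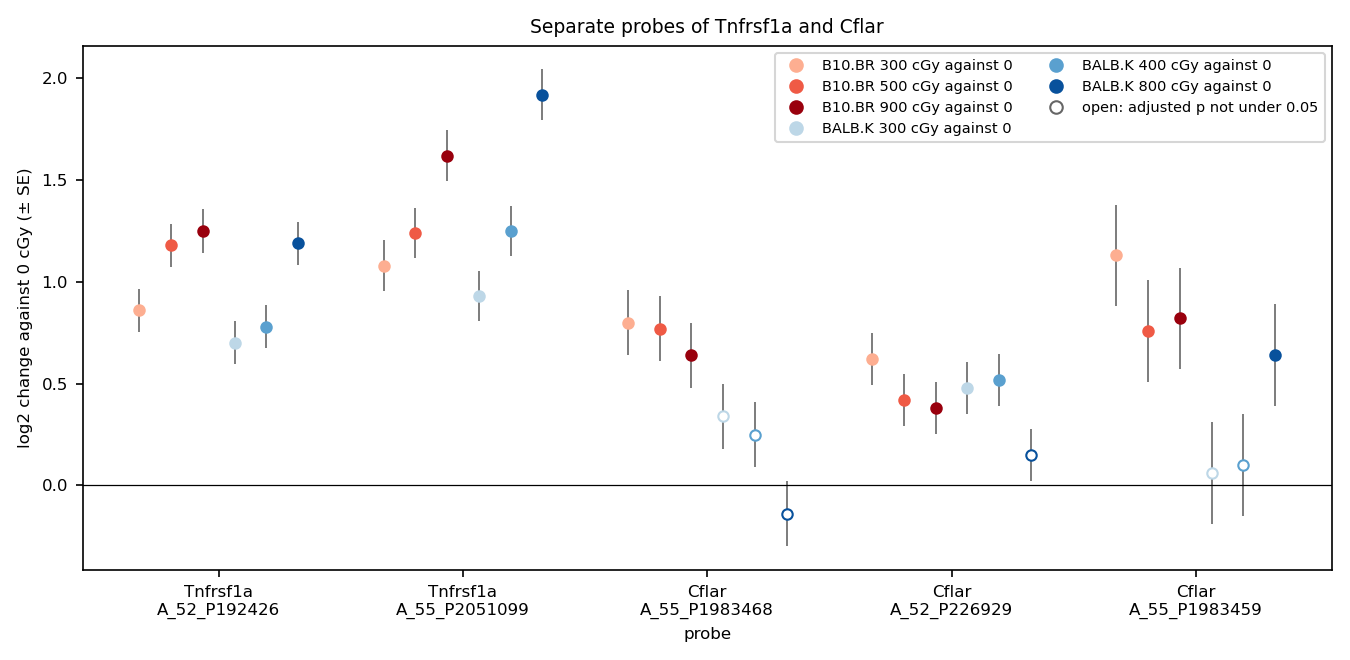
Log2 change against 0 cGy (points, vertical axis) with the standard error of the fit over all probes, for the 2 probes of Tnfrsf1a and the 3 of Cflar in the 6 comparisons, 3 arrays against 3. The Tnfrsf1a probes are filled throughout, while each Cflar probe is open in at least 1 BALB.K comparison.

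Of the ligands, Tnfsf10 rose at every dose, and in B10.BR it was lower at 900 than at 500 cGy. In B10.BR its arrays read 0.87, 0.73 and 0.85 at 0 cGy, 1.68, 1.62 and 1.64 at 300 cGy, 1.90, 1.74 and 1.65 at 500 cGy, and 1.53, 1.28 and 1.32 at 900 cGy. In BALB.K they read 0.68, 0.68 and 0.77 at 0 cGy, 1.65, 1.98 and 1.78 at 300 cGy, 1.51, 1.63 and 1.68 at 400 cGy, and 1.40, 1.36 and 1.63 at 800 cGy. All irradiated arrays were above the unirradiated ones of their strain, with the shares of all features given for Fas. Those of B10.BR at 900 cGy were all below those at 500 cGy, which held for 12.5% of all features. The change was 0.83 ± 0.10, 0.95 ± 0.10 and 0.56 ± 0.10 in B10.BR (adjusted p of at most 9.20e-05), and 1.1 ± 0.10, 0.90 ± 0.10 and 0.76 ± 0.10 in BALB.K (adjusted p of at most 2.82e-06). In B10.BR it fell by 0.39 ± 0.10 at 900 against 500 cGy (adjusted p = 0.0333), where 3.25% of all features fell. Within slide 2, which held 3 arrays at 900 and 1 at 500 cGy, this step was -0.27 ± 0.17 (adjusted p = 0.698). Leaving out replicate 1 or 2 at 500 cGy, or replicate 2 or 3 at 900 cGy, gave -0.32 to -0.40 with an adjusted p of 0.0828 to 0.138, and with the exocrine level as a covariate the step was -0.25 (adjusted p = 0.342). In BALB.K neither step of Tnfsf10 passed (-0.20 and -0.14).

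Fasl rose at the lower doses and was not above 0 cGy beyond the test at the highest ones. In B10.BR its arrays read -0.68, -0.63 and -0.28 at 0 cGy, -0.27, -0.09 and 0.27 at 300 cGy, 0.08, -0.17 and 0.30 at 500 cGy, and -0.21, -0.31 and 0.06 at 900 cGy. In BALB.K they read -0.98, -0.87 and -0.85 at 0 cGy, -0.27, 0.05 and -0.22 at 300 cGy, -0.53, 0.01 and -0.06 at 400 cGy, and -0.59, -0.83 and -0.76 at 800 cGy. Its SDs ran from 0.073 to 0.293 (n = 3), and at 900 cGy in B10.BR its arrays overlapped with 0 cGy. The change was 0.50 ± 0.17 (adjusted p = 0.0228), 0.60 ± 0.17 (adjusted p = 0.00594) and 0.38 ± 0.17 (adjusted p = 0.0681) in B10.BR at 300, 500 and 900 cGy. In BALB.K it was 0.75 ± 0.17 (adjusted p = 0.00124), 0.71 ± 0.17 (adjusted p = 0.00168) and 0.17 ± 0.17 (adjusted p = 0.397) at 300, 400 and 800 cGy. At 800 against 400 cGy in BALB.K it fell by 0.54 ± 0.17 (adjusted p = 0.0332, with 9.96% of all features lower), and within slide 3, which held both groups, the adjusted p was 0.0513. Without replicate 2 or 3 at 400 or at 800 cGy the step was -0.44 to -0.52 (adjusted p of 0.088 to 0.146), and without the BALB.K arrays that lack Y-linked signal it was -0.20 (adjusted p = 0.713). The B10.BR call at 300 cGy was lost without replicate 1 or 2 at 0 cGy (0.42 and 0.45) or replicate 3 at 300 cGy (0.35), and the call at 900 cGy was gained without replicate 3 at 0 cGy (0.50, adjusted p = 0.0292). With the replicate block the change at 900 cGy passed as well (adjusted p = 0.0402). The BALB.K call at 400 cGy was lost with slide as a block (0.52, adjusted p = 0.183), and without the BALB.K arrays that lack Y-linked signal (0.46, adjusted p = 0.254), as was that at 300 cGy (0.71, adjusted p = 0.0848).

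Marker signal of cell types known to make Fasl is given here beside it. The summed signal of 6 NK cell markers (Ncr1, Klrb1c, Eomes, Gzma, Prf1 and Klre1) ran in B10.BR over 0.0133% to 0.0167% of all signal at 0 cGy, 0.0200% to 0.0233% at 300 cGy, 0.0245% to 0.0263% at 500 cGy and 0.0196% to 0.0268% at 900 cGy. In BALB.K it ran over 0.0146% to 0.0187%, 0.0162% to 0.0213%, 0.0118% to 0.0149% and 0.0118% to 0.0124% at 0, 300, 400 and 800 cGy. Of these markers 3 rose in each B10.BR comparison, while 1 fell in B10.BR at 500 and at 900 cGy, and in BALB.K 1 fell at 300 cGy and 5 fell at 400 and at 800 cGy. The 7 measured T cell markers (Trac was not measured) summed to 0.0095% to 0.0105% in B10.BR at 900 cGy, against 0.0352% to 0.0367% at 0 cGy, and to 0.0109% to 0.0116% in BALB.K at 800 cGy, against 0.0288% to 0.0324% at 0 cGy, with 6 of 7 lower in all 6 comparisons and 1 higher in B10.BR at 500 cGy. The 8 macrophage markers all rose in all 6 comparisons, with medians of 1.25 to 2.25, and so did 5 or 6 of 6 markers of stroma and endothelium. In the difference between the strains' changes at the highest doses, 5 of 6 NK cell markers passed with a higher change in B10.BR. So did 6.81% of all features. Beside these marker counts against 0 cGy, 18.7% to 29.3% of all features rose and 23.0% to 29.1% fell. The part of these marker shifts in the members' changes was not tested.

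**Figure D3:**
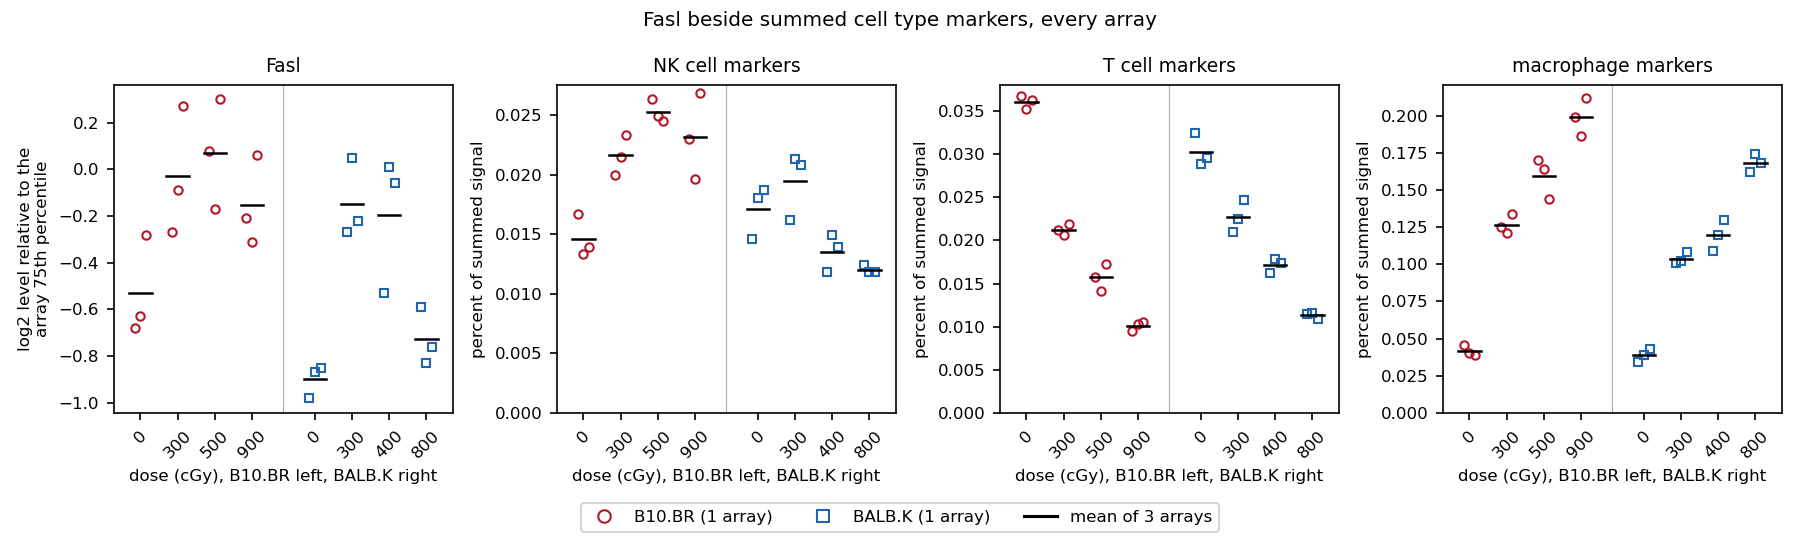
Left panel, log2 level of Fasl on every array (symbols) and group mean (bars) by dose in cGy, with B10.BR and BALB.K side by side, and in the other panels the share of all signal, in percent, held by NK cell, T cell and macrophage markers. NK cell markers at the highest dose were above 0 cGy in B10.BR and below it in BALB.K, T cell markers fell with dose and macrophage markers rose.

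Fadd, the adaptor that all these receptors use, passed in none of the 6 comparisons. Its changes were 0.25, 0.27 and 0.13 in B10.BR at 300, 500 and 900 cGy and -0.05, -0.14 and -0.20 in BALB.K at 300, 400 and 800 cGy, each ± 0.13, with adjusted p of 0.0912 to 0.758. Over all 24 arrays it ranged between -0.36 and 0.25, and irradiated and unirradiated arrays overlapped in every comparison. The 95% intervals of the 6 changes together ran from -0.47 to 0.55. In B10.BR the array of replicate 1 at 0 cGy stood apart at 0.13, against -0.31 and -0.36 for the others, and without it Fadd passed at 300 cGy (0.41, adjusted p = 0.0133) and at 500 cGy (0.43, adjusted p = 0.00784). In BALB.K it passed at 800 cGy without replicate 1 at 0 cGy (-0.33, adjusted p = 0.0372).

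Casp8, the protease that starts the cascade, differed between the strains before irradiation. Its arrays read 1.78, 1.81 and 1.78 in B10.BR at 0 cGy, against 0.91, 1.24 and 1.15 in BALB.K at 0 cGy. In B10.BR the irradiated arrays lay between 1.47 and 2.21 and overlapped with 0 cGy, and the changes were 0.07, -0.03 and -0.10, each ± 0.16 (adjusted p of 0.631 to 0.884). In BALB.K they lay between 1.34 and 1.85, all above 0 cGy, with the shares of all features given for Fas. There Casp8 rose by 0.42 ± 0.16 (adjusted p = 0.0344), 0.39 ± 0.16 (adjusted p = 0.0478) and 0.46 ± 0.16 (adjusted p = 0.0167) at 300, 400 and 800 cGy. The difference between the strains' changes did not pass at 300 cGy (-0.36 ± 0.22, adjusted p = 0.328) or at the highest doses (-0.56 ± 0.22, adjusted p = 0.109). The BALB.K calls were lost with slide as a block (0.24, 0.11 and 0.18, with SEs of 0.22 to 0.28), a fit that rests on the slide ties given above. They were lost too without replicate 1 at 0 cGy (0.33, 0.29 and 0.37, adjusted p of 0.0795 to 0.177). The calls at 300 and 400 cGy were lost with spike-in scaling (adjusted p = 0.373 and 0.23), in a fit on only the arrays compared (adjusted p = 0.144 and 0.0538), and when the BALB.K arrays with Y-linked signal (adjusted p = 0.109 and 0.18) or those without it (adjusted p = 0.242 and 0.198) were left out. That at 400 cGy was lost too with median scaling (0.35, adjusted p = 0.0688), no filter (adjusted p = 0.0586) or the exocrine covariate (adjusted p = 0.059). With Y-linked signal as a covariate the difference at the highest doses passed (-0.73, adjusted p = 0.0425). The call at 300 cGy was lost without replicate 3 at 0 cGy (0.45) or at 300 cGy (0.26), and that at 400 cGy without replicate 3 at 0 cGy (0.41) or replicate 2 or 3 at 400 cGy (0.38 and 0.34).

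Cflar rose in B10.BR, and in BALB.K its probes gave different answers. The probe that stood for the gene read 0.44, 0.21 and 0.09 in B10.BR at 0 cGy, 0.87, 0.97 and 1.30 at 300 cGy, 0.93, 0.99 and 1.13 at 500 cGy, and 1.06, 0.63 and 0.98 at 900 cGy. In BALB.K it read 0.55, 1.08 and 0.92 at 0 cGy, 0.98, 1.40 and 1.19 at 300 cGy, 0.90, 1.11 and 1.30 at 400 cGy, and 0.80, 0.71 and 0.62 at 800 cGy. No irradiated B10.BR array reached down to those at 0 cGy, with the shares of all features given for Fas, whereas the BALB.K groups overlapped. The change was 0.80 ± 0.16, 0.77 ± 0.16 and 0.64 ± 0.16 in B10.BR (1.74-fold to 1.56-fold, adjusted p of at most 0.00201), and 0.34 ± 0.16, 0.25 ± 0.16 and -0.14 ± 0.16 in BALB.K (adjusted p of 0.0881 to 0.454). At 900 cGy in B10.BR the call was lost with slide as a block (0.47, adjusted p = 0.214). In BALB.K at 300 cGy Cflar passed in 6 of 21 alternatives. These were without replicate 2 at 0 cGy or replicate 1 at 300 cGy (0.45 each), and with median scaling (0.53, adjusted p = 0.0109). The others were the mean of its probes (0.29, adjusted p = 0.0496) and the Y-linked (0.34, adjusted p = 0.0371) or exocrine covariate (0.45, adjusted p = 0.0259). At 400 cGy it passed in 1 of 21, with the mean of its probes (0.29, adjusted p = 0.0482), and at 800 cGy in 0 of 20.

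The probe A_52_P226929 rose in all B10.BR comparisons (0.62, 0.42 and 0.38) and in BALB.K at 300 cGy (0.48 ± 0.13, adjusted p = 0.00556) and 400 cGy (0.52 ± 0.13, adjusted p = 0.00248), and not at 800 cGy (0.15, adjusted p = 0.338). The probe A_55_P1983459, printed above, rose in B10.BR (1.13, 0.76 and 0.82, each ± 0.25) and in BALB.K at 800 cGy alone (0.64 ± 0.25, adjusted p = 0.0375). In BALB.K its level moved with the Y-linked signal: the 6 arrays with that signal read -1.44, -1.34, -1.31, -1.20, -1.24 and -1.43, and the 6 without read -1.92 to -2.33. The 3 arrays at 800 cGy all had the signal, and at 0, 300 and 400 cGy only replicate 1 had it, at -1.44 for 0 cGy. The signal therefore cannot be told apart from replicate number at the lower doses, or from dose at 800 cGy. How many of all features split in that way was not counted. In B10.BR, where all arrays had the signal, the arrays at 0 cGy read -2.30, -2.45 and -2.51.

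**Figure D4:**
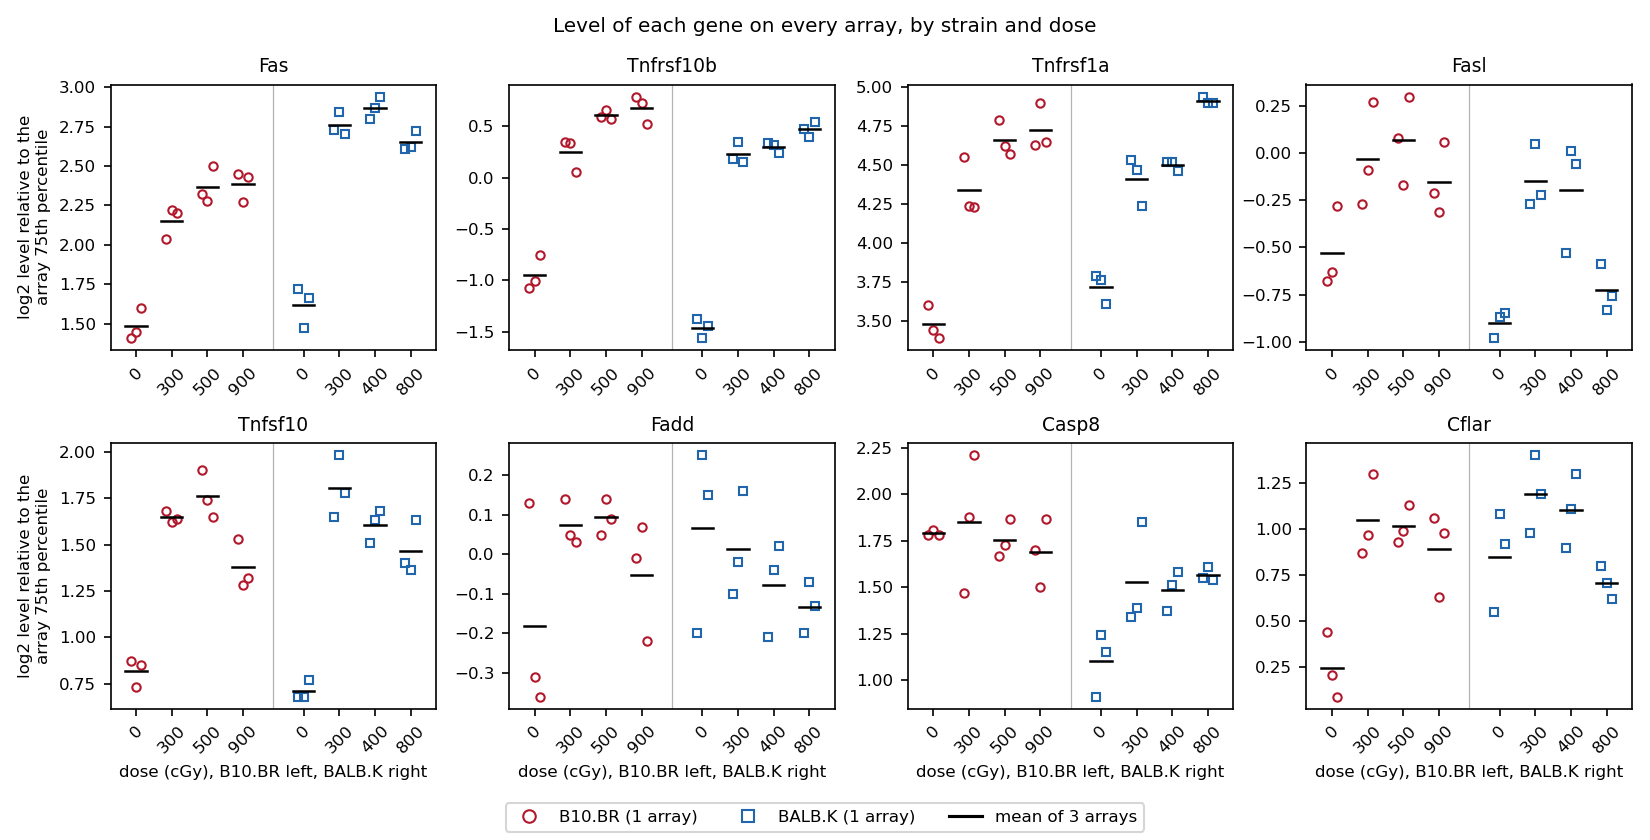
Log2 level relative to the array 75th percentile (vertical axis) of the 8 genes on every array (symbols) with the mean of 3 arrays (bars), by dose in cGy, B10.BR at the left and BALB.K at the right of each panel. Fas reads higher on irradiated BALB.K arrays, a difference between strains that was not tested. Casp8 is higher in B10.BR at 0 cGy, and Fadd overlaps throughout.

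Without irradiation 2 members were higher and 1 was lower in B10.BR than in BALB.K, where 22.6% of all features were higher and 30.7% lower. Tnfrsf10b averaged -0.94 ± 0.17 in B10.BR and -1.46 ± 0.09 in BALB.K (SD, n = 3 each), a difference of 0.51 ± 0.10 (adjusted p = 0.00037). Casp8 averaged 1.79 ± 0.02 in B10.BR and 1.1 ± 0.17 in BALB.K (SD, n = 3 each), a difference of 0.69 ± 0.16 (adjusted p = 0.00137). Cflar averaged 0.25 ± 0.18 in B10.BR and 0.85 ± 0.27 in BALB.K (SD, n = 3 each), a difference of -0.61 ± 0.16 (adjusted p = 0.00378). That value is of the probe that stood for the gene. In the fit over all probes A_52_P226929 differed by -0.19 (adjusted p = 0.233) and A_55_P1983459 by -0.49 (adjusted p = 0.11), neither passing. The difference of Fas was -0.13 ± 0.09, with a 95% interval of -0.32 to 0.06. These groups lay on different slides and differ in Y-linked signal, and scaling on the spike-in probes, which moved the median of all features by -0.70, turned Tnfrsf10b to -0.18 and Casp8 to -0.01, neither passing. With that scaling Fas (-0.83, adjusted p = 0.00225), Tnfrsf1a (-0.94, adjusted p = 0.000443), Fadd (-0.94, adjusted p = 0.000896) and Tnfsf10 (-0.59, adjusted p = 0.0108) passed as lower in B10.BR, beside Cflar (-1.3). The Cflar difference was -0.31 (adjusted p = 0.247) without the BALB.K arrays that lack Y-linked signal, and slide as a block left Tnfrsf10b at 0.46 (adjusted p = 0.0984) and Cflar at -0.44 (adjusted p = 0.297). Cflar was also lost with median scaling (-0.28, adjusted p = 0.141) and with Y-linked signal as a covariate (-0.37, adjusted p = 0.0518). With the replicate block 5 members passed, Tnfrsf1a (adjusted p = 0.0285) and Fasl (adjusted p = 0.0438) being added.

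The changes after 300 cGy, a dose given to both strains, differed in 2 members, where 4.86% of all features changed less in B10.BR and 6.03% more. The change of Fas was 0.66 in B10.BR and 1.14 in BALB.K, a difference of -0.47 ± 0.13 (adjusted p = 0.0226). That of Tnfrsf10b was 1.19 in B10.BR and 1.68 in BALB.K, a difference of -0.49 ± 0.14 (adjusted p = 0.0335). The Tnfrsf10b level at 300 cGy was 0.25 in B10.BR and 0.23 in BALB.K, and the levels at 0 cGy are those given above. The Fas level at 300 cGy was 2.15 in B10.BR and 2.75 in BALB.K. Both calls were lost with spike-in scaling, which moved the median of all features by 0.41 (Fas -0.06, Tnfrsf10b -0.08), with slide as a block (-0.44 and -0.45), and in a fit on only the arrays compared (adjusted p = 0.119 and 0.161). The Fas call was lost without replicate 3 of B10.BR at 0 cGy or 1 at 300 cGy, or without replicate 2 of BALB.K at 0 or 300 cGy (-0.40 to -0.43). The Tnfrsf10b call was lost without replicate 3 of B10.BR at 0 or 300 cGy, or without replicate 2 or 3 of BALB.K at 0 cGy or 2 at 300 cGy (-0.39 to -0.50). It was lost too when BALB.K arrays with Y-linked signal were left out (-0.56, adjusted p = 0.055), and both were lost when those without it were (-0.34 and -0.36).

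At the highest doses, 900 cGy in B10.BR and 800 cGy in BALB.K, 1 member differed in its change, where 6.81% of all features changed more in B10.BR and 5.92% less. Cflar changed by 0.64 in B10.BR at 900 cGy and by -0.14 in BALB.K at 800 cGy, a difference of 0.79 ± 0.23 (adjusted p = 0.0273). In the fit over all probes A_52_P226929 gave 0.23 (adjusted p = 0.469) and A_55_P1983459 gave 0.18 (adjusted p = 0.801), neither passing. With the mean of the 3 Cflar probes the difference was 0.40 (adjusted p = 0.134), with Y-linked signal as a covariate it was 0.55 (adjusted p = 0.081), and with slide as a block 0.93 (adjusted p = 0.299). It was also lost without replicate 2 or 3 of B10.BR at 0 cGy or 1 or 3 at 900 cGy, or without replicate 2 or 3 of BALB.K at 0 or 800 cGy (0.67 to 0.79, adjusted p of 0.0539 to 0.0759). The doses differ, so strain and dose cannot be told apart here.

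Between successive doses few members moved. In B10.BR no member passed at 500 against 300 cGy, where 1.60% of all features did, and in BALB.K none passed at 400 against 300 cGy, where 4.77% did. In the limma fit 3 members had an unadjusted p under 0.05 in the first of these steps and 0 in the second. The share of all features under that unadjusted threshold was not counted, so whether these counts are unusual is not known. Tnfsf10 at 900 against 500 cGy in B10.BR, and Tnfrsf1a and Fasl at 800 against 400 cGy in BALB.K, are the steps that passed, as given above.

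The wider pathway moved in both directions. Of 45 further genes, all measured, 15 rose and 13 fell in B10.BR at 300 cGy. At 500 cGy 17 rose and 12 fell, and at 900 cGy 15 rose and 18 fell. Of all features 18.7%, 22.1% and 25.8% rose there, and 23.0%, 26.7% and 28.4% fell. In BALB.K 19 rose and 9 fell at 300 cGy, and 18 rose and 10 fell at 400 cGy. At 800 cGy 21 rose and 14 fell. Of all features 20.7%, 25.6% and 29.3% rose there, and 26.0%, 26.0% and 29.1% fell. The list's median change lay between -0.10 and 0.20. The shares of all features above apply as well to the smaller groups of genes named next. Medians of single genes are over the 6 comparisons of log2 change with 0 cGy.

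Among 10 further death receptors and ligands, 6 rose and 2 fell in B10.BR at 300 and 500 cGy, 6 rose and 3 fell at 900 cGy, and in BALB.K 7, 5 and 7 rose while 0, 0 and 2 fell at 300, 400 and 800 cGy. Tnfsf12 (Tweak, a Tnf family ligand) rose in all 6 by 0.84 to 2.09 (each ± 0.22, median 1.36), Tnfrsf21 (death receptor 6) by 0.90 to 1.83 (± 0.10, median 1.34) and Ngfr (the p75 neurotrophin receptor) by 0.76 to 1.73 (± 0.09, median 1.29). The 3 necroptosis genes, which act when Casp8 is blocked, rose in all 6: Mlkl, which breaches the membrane, by 1.78 to 2.49 (± 0.19), Zbp1, a sensor of nucleic acids, by 1.17 to 2.07 (± 0.16) and the kinase Ripk3 by 0.32 to 0.92 (± 0.11). Of the 3 decoy receptors, Tnfrsf11b (osteoprotegerin, which binds Tnfsf10 in man) rose in all 6 with a median of 1.59, and Tnfrsf22 (-0.38) and Tnfrsf23 (0.08) passed in none.

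Downstream of Casp8, Bid, whose cleavage links Casp8 to the mitochondria, fell in 5 of the 6 comparisons with a median of -0.60. Among 11 regulators of the receptor complex and its ubiquitin chains, 0, 1 and 0 rose and 4, 3 and 7 fell in B10.BR, and 4, 4 and 3 rose and 2, 3 and 4 fell in BALB.K, in order of dose. Otulin, which cuts linear ubiquitin chains, fell in 5 (median -0.60), Sharpin, which helps to build them, fell in 6 (median -0.39) and Birc2 (cIap1) rose in the 3 BALB.K comparisons (median 0.39). Of 12 other death domain proteins and Fas modulators, 3 to 5 rose and 4 to 6 fell in each comparison, Dedd2 (median -1.29) and Casp2 (median -0.90) falling and the phosphatase Ptpn13, which binds human FAS, rising (median 0.96) in all 6.

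**Figure D5:**
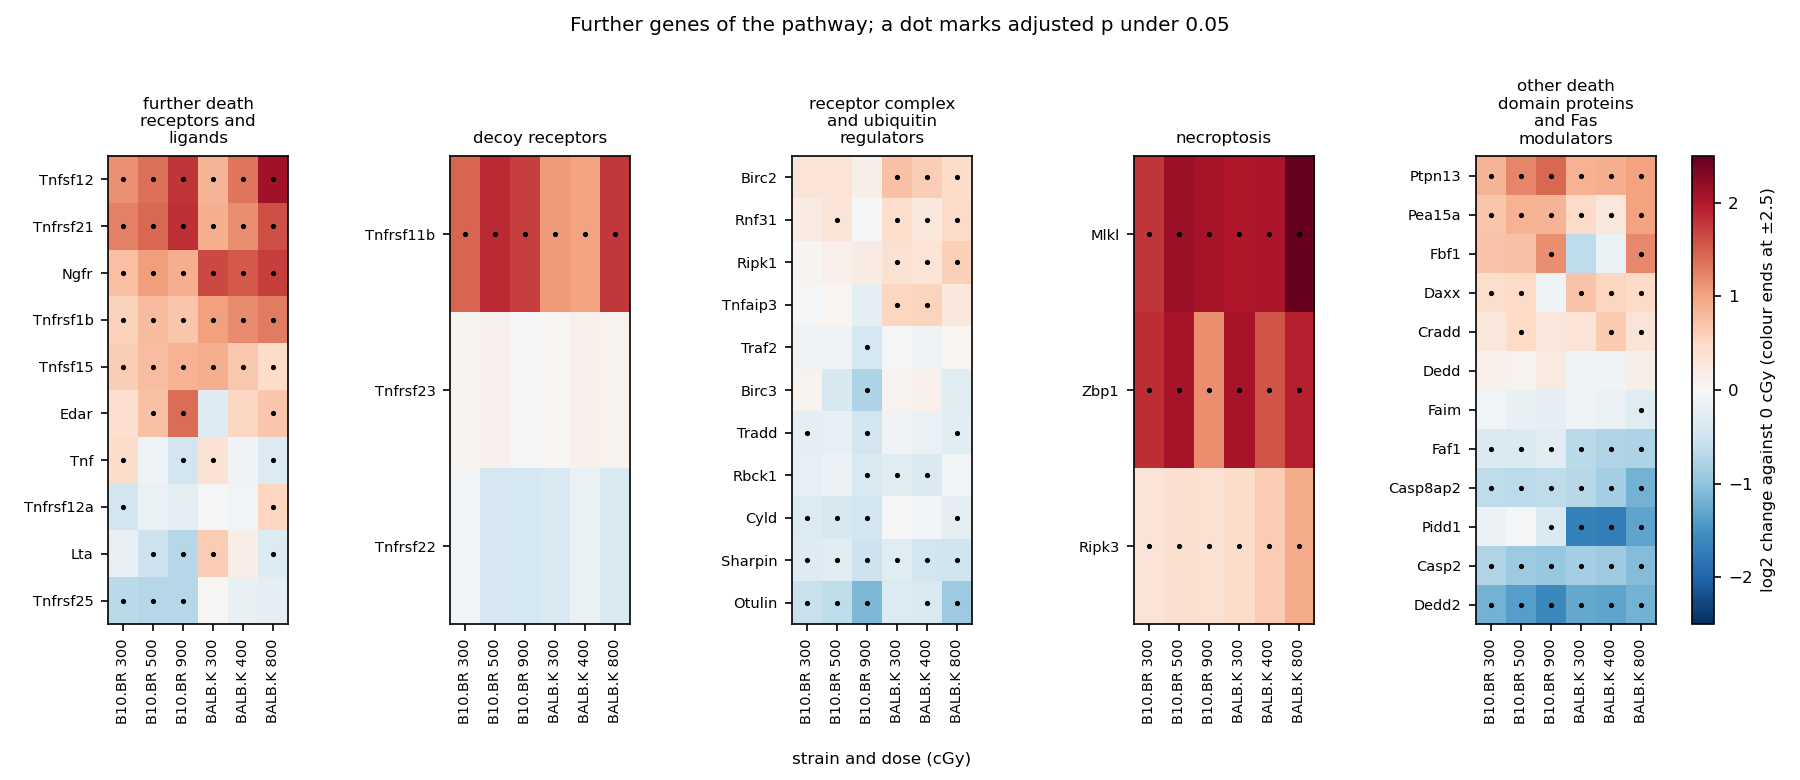
Log2 change against 0 cGy (colour, ending at 2.5 in each direction) of further pathway genes in 5 groups (panels, 1 row a gene), for 3 doses of B10.BR and 3 of BALB.K (columns, dose in cGy). Dots mark an adjusted p under 0.05, and the 3 necroptosis genes are marked in every column.

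Across the 24 arrays the receptors and Tnfsf10 varied together, with Pearson correlations of 0.75 to 0.90, highest for Tnfrsf10b with Tnfrsf1a, while Fadd correlated with Fas at -0.05 and with Casp8 at 0.00. These correlations describe arrays that share doses, strains and cell mixture. Among 19814 other features with a RefSeq symbol, those most like Fas were Trp53inp1 (0.966), Tgm1 (0.965) and Plekhh1 (0.960), and those most like Tnfrsf10b were Matn1 (0.986), Acvr1 (0.985) and C1s1 (0.982). Tnfrsf1a was most like Sil1, Trim47 and C1ra (0.987 each), Tnfsf10 most like Irgm1, Colq and Phf11d (0.953 each), and Fasl most like Epsti1 (0.899), Il2ra (0.875) and Hmgn3 (0.874). Casp8 was most like Stoml1 (0.877), Sp100 (0.868) and Nyx (0.856), Cflar most like Arl6 (0.907), Gm8578 (0.866) and Stx8 (0.864), and Fadd most like 9130019O22Rik (0.718), Spon2 (0.717) and Zscan12 (0.691).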

How the data were processed

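The arrays were read from 24 deposited scanner files. Per the file headers each holds 1 colour of spot intensity (linear, no unit), with the background already subtracted in the processed signal; the software, Agilent Feature Extraction 10.5.1.1, is credited to the submitters' processing notes. A deposited matrix of the authors gives log2 values of the same arrays, centred by probe, with column medians of -0.12 to 0.18. Its normalization, and what the B10.BR columns were centred on, are unknown here (BALB.K probes had a median of 0), and it was used inside each strain as an alternative.

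Each level is the log2 processed signal minus the 75th percentile of that array (control spots excluded). Outlier spots were left out and replicate spots averaged. Probes well above background on all 3 arrays of at least 1 group were kept (42319 of 55681), and each gene was represented by its brightest probe on average, giving 29532 features. Names came from the array's columns, and RefSeq (GRCm38.p6) gave current symbols through the accession (26413 probes), the symbol (3859) or a synonym (735), leaving 24674 under the array's own name. No spot was saturated and no pair of arrays held identical values.

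A mean per group was fitted with limma 3.58.1 in R 4.3.3 (with version 1.17.8 of the data.table package) over all 24 arrays, with Benjamini-Hochberg adjustment over all features for each of 13 comparisons; the steps were tested on simulated data. Separate probes came from the same fit over all probes. Alternatives covered 3 other scalings (quantile, the array median, 10 spike-in probes), normexp (offset 50), no filter or a stricter one, the mean of a gene's probes, slide as a block, the replicate number as a block, Y-linked or exocrine pancreas signal as a covariate, only the arrays compared, the deposited matrix and each array left out. Leaving out BALB.K arrays with or without Y-linked signal was chosen after seeing the data. Same-numbered arrays deviated together in every pair (correlation above 0.1) only at B10.BR 900 against 500 cGy (0.21, 0.12 and 0.24); the labels give no pairing.

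The members and the gene lists were chosen with earlier results of these data known. The rule names all members and their probes, up to 3 genes of each pathway group with the largest median change over the 6 comparisons with 0 cGy, the 3 genes most correlated with each member, Cdkn1a, Ddx3y and the cell type markers. Some genes the rule names are not reported here, though the counts over the pathway list include them.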

Additional observations from a re-analysis of the deposited data

Results flagged for a closer look

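These results, of the members and of the pathway genes named by the rule for naming genes, stood out because the change after irradiation differed between the strains by a test of the difference itself (B10.BR change minus BALB.K change, limma, adjusted over all features). At 300 cGy the difference was -0.47 ± 0.13 for Fas (adjusted p = 0.0226) and -0.49 ± 0.14 for Tnfrsf10b (adjusted p = 0.0335), both rising more in BALB.K. For Ngfr it was -0.91 ± 0.13 (adjusted p = 0.000215).

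At the highest doses, 900 cGy in B10.BR and 800 cGy in BALB.K, the difference was 0.79 ± 0.23 for Cflar (adjusted p = 0.0273), -0.82 for Ngfr (adjusted p = 0.000354), -0.78 ± 0.22 for Zbp1 (adjusted p = 0.0255) and -0.54 ± 0.16 for Ripk3 (adjusted p = 0.0332). Strain and dose cannot be told apart in these 4. The Cflar value is that of 1 probe, and the other Cflar probes did not pass. It passed in 11 of 25 alternatives.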

How the results depend on the processing

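Against 0 cGy, Fas, Tnfrsf10b, Tnfrsf1a and Tnfsf10 passed, in the same direction, in all 125 values that the alternatives gave for each, while Fasl passed in 79, Cflar in 69, Casp8 in 40 and Fadd in 7. Where a call or sign was lost the cause was not tested. Scaling on spike-in probes moved the median of all features by up to 0.39 against 0 cGy and by -0.70 between the unirradiated strains. It turned that strain difference to -0.18 for Tnfrsf10b, -0.59 for Tnfsf10 and -0.01 for Casp8. For members called, BALB.K 400 against 300 cGy gave 1 with median scaling. BALB.K 800 against 400 cGy gave 1 with spike-in scaling or only the arrays compared, and 0 with the Y-linked or exocrine covariate or without BALB.K arrays that lack Y-linked signal. B10.BR 900 against 500 cGy gave 0 with spike-in scaling, slide as a block, the exocrine covariate or only the arrays compared. Unirradiated strains gave 5 with spike-in scaling, 1 with slide as a block and 5 with the replicate block. The strain difference at 300 cGy gave 0 with spike-in scaling, slide as a block, only the arrays compared or without BALB.K arrays that lack Y-linked signal, and 1 without those that have it. That at the highest doses gave 0 with spike-in scaling, the mean of a gene's probes, slide as a block, only the arrays compared or without BALB.K arrays that lack Y-linked signal. Leaving out 1 array gave 1 to 2 members at BALB.K 800 against 400 cGy, 0 to 1 at B10.BR 900 against 500 cGy, 3 to 5 between unirradiated strains, 0 to 2 at 300 cGy and 0 to 1 at the highest doses. Of the 45 pathway genes, in BALB.K at 300 cGy 18 were called with only the arrays compared and 15 with spike-in scaling, then 16 and 22 with slide as a block at 400 and 800 cGy, and 19 and 18 with spike-in scaling in B10.BR at 500 and 900 cGy. Over all features the counts reached as low as 8182 (of 13819, BALB.K 300 cGy), 7634 (of 12330, B10.BR 300 cGy), 9439 (of 14415, B10.BR 500 cGy) and 5746 (of 15766, unirradiated strains). They ran from 2 to 4899 (1409, BALB.K 400 against 300 cGy), 1917 to 7836 (5498, BALB.K 800 against 400 cGy), 0 to 952 (472, B10.BR 500 against 300 cGy), 55 to 2045 (1355, B10.BR 900 against 500 cGy), 871 to 5003 (3218, strain difference at 300 cGy) and 408 to 4644 (3759, highest doses). With spike-in scaling 85.0% of called features were higher in B10.BR at 300 cGy, against 44.8% as reported, and with median scaling 62.9% in BALB.K at 300 cGy, against 44.3%. The replicate block, whose numbers pair nothing in the labels, changed no member call beyond those of Fasl at B10.BR 900 cGy and of Tnfrsf1a and Fasl between unirradiated strains. With the authors' deposited matrix 3 member calls were lost: Tnfsf10 at B10.BR 900 against 500 cGy (-0.39, adjusted p = 0.0515), and Fasl at BALB.K 800 against 400 cGy (-0.51, adjusted p = 0.0506) and at B10.BR 300 cGy (0.49, adjusted p = 0.0504).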

Other observations

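Other cell type markers of the same spleens were counted against 0 cGy, where 18.7% to 29.3% of all features rose and 23.0% to 29.1% fell. All 6 B cell markers fell in 5 of the comparisons and 5 of 6 fell in BALB.K at 300 cGy, with median log2 changes of -0.82 to -2.81. Of 6 erythroid markers 5 fell in all 6 comparisons (medians -4.19 to -5.94). All 4 megakaryocyte and platelet markers rose in the 3 B10.BR comparisons and in BALB.K at 800 cGy, with 1 and 2 rising in BALB.K at 300 and 400 cGy. Of 5 neutrophil markers 5, 3 and 1 rose in B10.BR at 300, 500 and 900 cGy, and 2, 0 and 1 rose in BALB.K at 300, 400 and 800 cGy. Of 5 dendritic cell markers 4 fell in each B10.BR comparison, and 0, 2 and 4 fell in BALB.K at 300, 400 and 800 cGy.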
